A study of Rattus norvegicus with 2 samples.

Results

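Cell cycle genes were followed through single cultured cells of the neonatal rat heart. The set is a list of 40 genes of DNA replication and mitosis, of which 38 were found by symbol among the 25399 genes of the deposited matrices. *Ccnb2* and *E2f1* had no row and are left out. Of the genes found, 11 act at the G1 to S transition or in replication (the replication genes) and 27 act in mitosis: 8 cyclins and kinases, 16 proteins of chromosomes and the spindle and 3 of protein degradation (the mitosis genes). Genes entered by name, and the rule uses no measured level, but the list was chosen with earlier results of these data known.

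The cells came from hearts of Sprague-Dawley rats of 1 to 3 days of age, male and female pooled, with no genetic change. They were enriched on a Percoll gradient, plated and cultured, so the levels here are those of cells in culture. The cultures were given saline (control) or LPS, the bacterial lipopolysaccharide that innate immune receptors detect, at 1 µg/ml for 2 h. Each condition is 1 library of the 10x Genomics 3′ kind, so nothing is replicated and no test could be made. All values are unique molecular identifiers (UMIs, 1 per captured transcript), and a level is the UMIs of a gene summed over a class of cells per 1000000 UMIs of that class (CPM). Ratios compare 2 libraries, not 2 conditions, and the 95% intervals cover counting error only; transcripts of these genes clump in a subset of cells, which the intervals do not take in.

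The control library held 11531 cells and 152624585 UMIs, the LPS library 12689 cells and 127580475 UMIs, with medians of 12479 and 9432 UMIs per cell, and 194 barcodes occurred in both. The authors' clusters were used as classes. Their names are Fibroblast for clusters 0, 1 and 7, ICA and Cardiomyocyte for cluster 3 (ICA, intrinsic cardiac adrenergic), Endothelial for clusters 4 and 5, Macrophages for cluster 6, and no type for clusters 2, 8, 9 and 10. Although the labels give the cells as ICA cells, clusters 0 and 1 together held most of them, and a list of 8 fibroblast markers reached 11033 CPM in cluster 0 and 9649 CPM in cluster 1 of the control library against 3462 CPM in cluster 3. The clusters were built from the expression of these same cells, so a gene that sets cluster 1 apart is a description of that cluster and no test of it.

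A dividing cell copies its DNA in S phase and parts the copies in mitosis. In G1, phosphorylation of the retinoblastoma protein releases E2F factors, which drive entry into S phase, and E2F sites lie in promoters of many replication genes. Many mitosis genes are held silent outside late cycle by the DREAM complex, which binds the cell cycle genes homology region (CHR), and are switched on by B-Myb and FoxM1, often with the CCAAT-binding factor NF-Y. The proteins of the late set are then tagged for destruction by the anaphase-promoting complex. In the newborn rat heart several cell types still divide, and cardiac fibroblasts are among those that expand after birth.

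The promoter windows at hand differed between the 2 groups of genes in CHR and E2F letters. RefSeq windows of the build GRCr8, from 250 bases before to 50 bases after the annotated start, were at hand for 27 of the 38 genes. These were 20 mitosis genes and only 7 of the 11 replication genes. *Ccne2*, *Esco2*, *Hist1h1b* and *Rrm2* were the replication genes without a window. The letters of the CHR, TTTGAA on either strand, stood in 14 of 20 mitosis windows (70%) and in 1 of 7 replication windows (14.3%), against 18.3% of all 33469 promoter windows. CCAAT, on either strand, stood in 17 of 20 mitosis windows (85%) and 5 of 7 replication windows (71.4%), against 37.5% of all windows. An E2F form, TTCCCGC or TTGGCGC on either strand, stood in 5 of 7 replication windows (71.4%) and 3 of 20 mitosis windows (15%), against 6.26% of all. Among the 21851 windows of protein-coding genes the shares were 17.1% for the CHR, 38.0% for CCAAT and 7.96% for an E2F form. None of these motifs contains another, and a match describes the letters and does not show that a factor binds.

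The windows of 2 mitosis genes with a CHR, of *Cdk1*, which holds all 3 kinds of motif, and of the replication gene *Mcm6* are printed to show the layout. Each reads 5′ to 3′ in the direction of its gene, in lower case, with capitals for the letters of CHR, CCAAT or an E2F form (or their reverse complements). *Plk1* lies at chr1:186147408-186147707 on the plus strand, *Top2a* at chr10:84473044-84473343 on the minus strand, *Cdk1* at chr20:19265043-19265342 on the plus strand and *Mcm6* at chr13:42404303-42404602 on the minus strand.
Plk1: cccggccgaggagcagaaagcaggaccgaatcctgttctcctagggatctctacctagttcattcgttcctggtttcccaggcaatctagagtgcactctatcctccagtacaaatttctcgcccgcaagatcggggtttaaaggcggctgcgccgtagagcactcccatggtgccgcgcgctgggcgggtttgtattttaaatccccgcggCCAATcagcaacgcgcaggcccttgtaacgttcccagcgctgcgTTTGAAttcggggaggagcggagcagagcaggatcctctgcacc
Top2a: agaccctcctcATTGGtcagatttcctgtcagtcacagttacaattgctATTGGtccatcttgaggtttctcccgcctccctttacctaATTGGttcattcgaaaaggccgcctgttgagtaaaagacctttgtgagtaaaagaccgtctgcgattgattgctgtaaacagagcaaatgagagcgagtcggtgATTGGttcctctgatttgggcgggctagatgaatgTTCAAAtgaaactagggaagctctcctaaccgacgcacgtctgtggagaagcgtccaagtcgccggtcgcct
Cdk1: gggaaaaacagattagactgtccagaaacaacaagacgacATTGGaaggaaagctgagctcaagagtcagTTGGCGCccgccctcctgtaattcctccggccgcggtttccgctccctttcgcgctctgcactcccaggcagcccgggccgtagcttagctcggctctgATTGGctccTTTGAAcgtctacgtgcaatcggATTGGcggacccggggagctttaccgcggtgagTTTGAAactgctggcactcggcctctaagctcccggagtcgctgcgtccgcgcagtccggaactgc
Mcm6: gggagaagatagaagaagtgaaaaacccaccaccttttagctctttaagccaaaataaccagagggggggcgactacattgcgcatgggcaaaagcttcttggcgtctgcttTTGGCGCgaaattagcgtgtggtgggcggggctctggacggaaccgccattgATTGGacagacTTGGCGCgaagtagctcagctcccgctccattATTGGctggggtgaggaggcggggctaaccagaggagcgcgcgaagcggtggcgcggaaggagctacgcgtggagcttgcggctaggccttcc

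In *Plk1*, 1 CHR follows 1 CCAAT. *Top2a* carries 4 CCAAT matches and 1 CHR, all as the reverse complement. *Cdk1* has 2 CHR, 3 CCAAT and 1 E2F match, and *Mcm6* 2 E2F and 2 CCAAT matches with no CHR.

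Summed over all cells with a cluster, the 38 genes had 98417 UMIs in the control library, or 645 CPM, and 79193 UMIs in the LPS library, or 621 CPM. They were spread very unevenly. Cluster 1, a fibroblast cluster, stood at 2298 CPM (95% Poisson interval 2279 to 2317) in control and 2324 CPM (2303 to 2345) in LPS cells. Cluster 0, the main fibroblast cluster, stood at 307 CPM (303 to 310) and 275 CPM (271 to 279). Among the others, cluster 8 was next to cluster 1, at 862 CPM in control and 948 CPM in LPS cells, and the lowest was cluster 10, at 257 and 245 CPM.

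With 11.2% of control cells and 15.7% of all their UMIs, cluster 1 held 56.1% of the UMIs of the 38 genes. In the LPS library it held 59.1%, with 11.3% of cells and 15.8% of UMIs. Its part was larger for the mitosis genes, 63.6% and 67.2%, than for the replication genes, 39.2% and 41.9%. Cluster 0 held 42.8% and 40.6% of the UMIs of the replication genes.

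**Figure D1:**
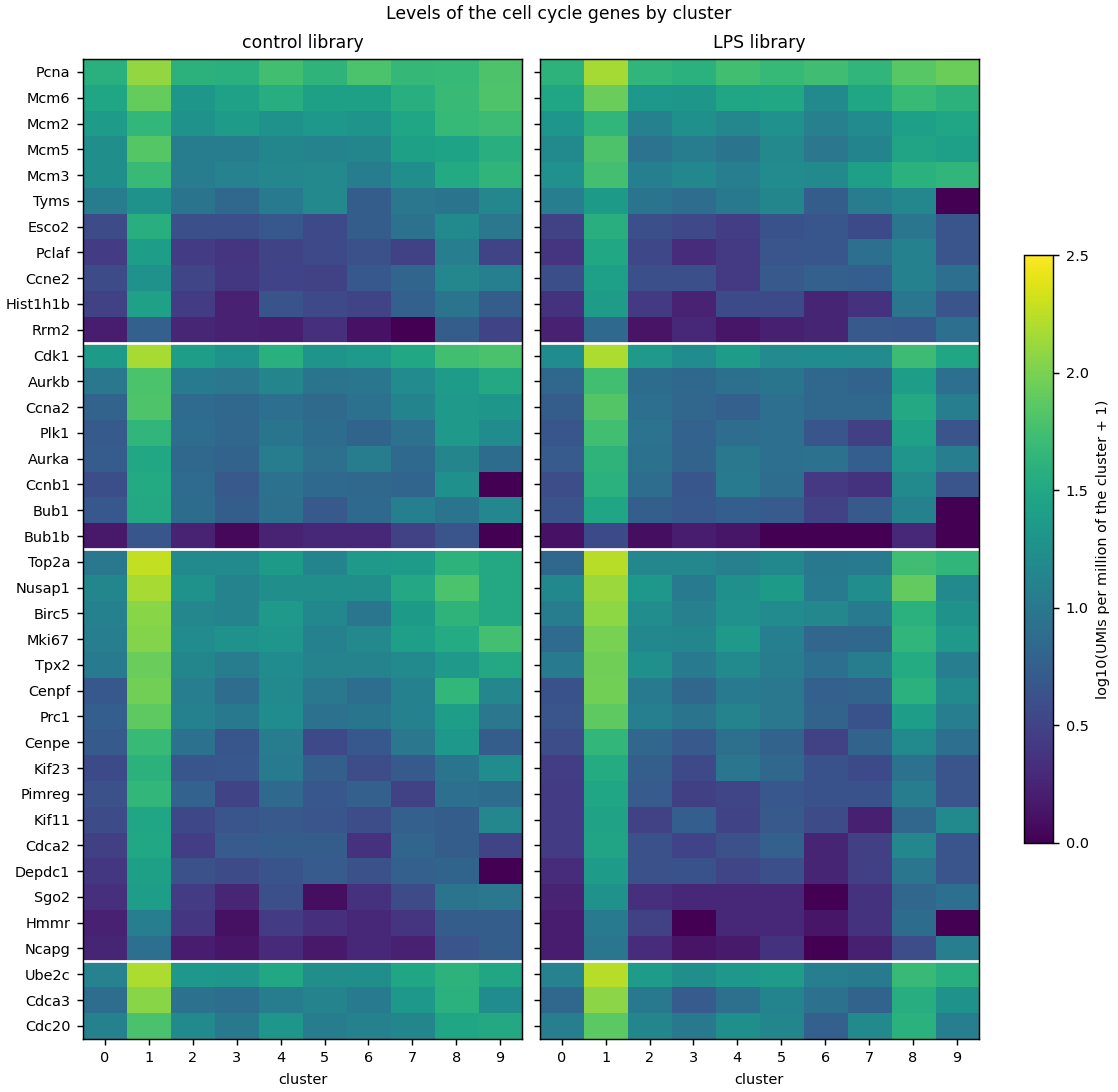
Level of each of the 38 genes in clusters 0 to 9, as log10 of CPM plus 1, for the control library (left) and the LPS library (right). White lines part the replication genes, the cyclins and kinases, the chromosome and spindle proteins and the degradation genes from top to bottom. The column of cluster 1 is the brightest apart from *Mcm2* in the control library and *Ncapg* and *Rrm2* in the LPS library, which were higher in cluster 9 from 23, 3 and 2 UMIs, and cluster 8 follows in many rows of the lower groups.

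Among the replication genes, *Pcna* (ENSRNOG00000021264), the sliding clamp that holds DNA polymerase on its template, had the most UMIs. Its level was 124 CPM in control and 146 CPM in LPS cells of cluster 1, and 37.6 and 40.4 CPM in cluster 0. Clusters 2 to 9 ranged up to 62.2 CPM in control and 85.8 CPM in LPS cells, both in cluster 9. *Mcm6* (ENSRNOG00000003703), a subunit of the MCM helicase that opens the double helix, stood at 80.6 and 83.4 CPM in cluster 1 and at 29.0 CPM in cluster 0 of both libraries. *Mcm2* (ENSRNOG00000016316), another subunit of the same ring, stood at 44.3 and 42.8 CPM in cluster 1 and at 22.3 and 19.4 CPM in cluster 0. Control cells of cluster 9 reached 51.1 CPM of *Mcm2*, from 23 UMIs, and those of cluster 8 reached 45.9 CPM from 51 UMIs, so cluster 1 was not the highest for this gene.

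The cyclins and kinases were set apart more sharply. *Cdk1* (ENSRNOG00000000632), the kinase that starts mitosis, stood at 147 and 155 CPM in cluster 1 against 22.3 and 15.3 CPM in cluster 0. For *Aurkb* (ENSRNOG00000005659), the kinase of the chromosomal passenger complex, the levels were 60.5 and 54.4 CPM against 8.94 and 5.88 CPM. *Ccna2* (ENSRNOG00000015423), the cyclin A of S phase and G2, had 63.2 and 66.3 CPM against 5.27 and 4.47 CPM. Each of these 3 genes was lower in every other cluster of both libraries than in cluster 1. In clusters 2 to 9 the highest was *Cdk1* in control cells of cluster 9, at 60.0 CPM from 27 UMIs.

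*Top2a* (ENSRNOG00000053047), the topoisomerase that untangles sister chromatids, was the gene of the chromosome and spindle group with the most UMIs. It stood at 187 and 168 CPM in cluster 1 and at 8.98 and 5.78 CPM in cluster 0. *Nusap1* (ENSRNOG00000004921), which binds spindle microtubules, had 148 and 132 CPM against 13.2 and 13.5 CPM. *Birc5* (ENSRNOG00000050819), which encodes survivin, had 113 and 118 CPM against 11.5 and 10.5 CPM. Outside clusters 0 and 1 these genes peaked in cluster 8, where *Nusap1* reached 61.2 CPM in control and 78.1 CPM in LPS cells and *Top2a* 40.5 and 53.3 CPM.

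The degradation genes followed the same order. *Ube2c* (ENSRNOG00000015131), the ubiquitin-conjugating enzyme of the anaphase-promoting complex, stood at 156 and 169 CPM in cluster 1 and at 11.7 and 12.0 CPM in cluster 0. *Cdca3* (ENSRNOG00000015529), which takes part in the destruction of the mitotic inhibitor Wee1, stood at 113 and 116 CPM against 7.02 and 6.02 CPM. *Cdc20* (ENSRNOG00000028415), the activator of the complex at anaphase, had 60.2 and 72.4 CPM against 11.6 and 10.7 CPM. The other 26 genes are shown in the map of levels by cluster. The scarcest were *Bub1b*, with 248 UMIs in both libraries together, and *Rrm2*, with 404. *Hist1h1b* is a replication histone whose transcripts mostly lack a poly(A) tail, so a poly(A) capture counts it with less certainty.

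Clusters 0 and 1 differed less in the replication genes than in the mitosis genes. In cluster 0 the summed level of the replication genes was 29.0% of that of cluster 1 in control and 26.4% in LPS cells, and that of the mitosis genes was 9.08% and 7.50%. Over the 11 replication genes the median was 24.3% and 24.0%, and over the 27 mitosis genes 8.91% and 6.74%. *Tyms*, the enzyme that makes thymidylate for DNA synthesis, was nearest to its level in cluster 1, at 59.6% (53.1 to 67.0) and 48.6% (43.2 to 54.7). *Mcm2* stood at 50.4% and 45.4%, and *Pcna* at 30.2% and 27.7%.

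Not all replication genes belonged to the upper range. *Pclaf*, a partner of PCNA, stood at 7.44% and 4.80% of its level in cluster 1, *Esco2*, which acetylates cohesin in S phase, at 7.74% and 5.85%, and *Hist1h1b* at 7.96% and 5.75%. These fall among the mitosis genes, whose range ran from *Cenpf*, a kinetochore protein, at 4.25% in control and *Top2a* at 3.44% in LPS cells up to *Cdc20* at 19.3% and 14.7%. *Cdk1*, at 15.1% and 9.83%, was also in the upper part of that range.

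**Figure D2:**
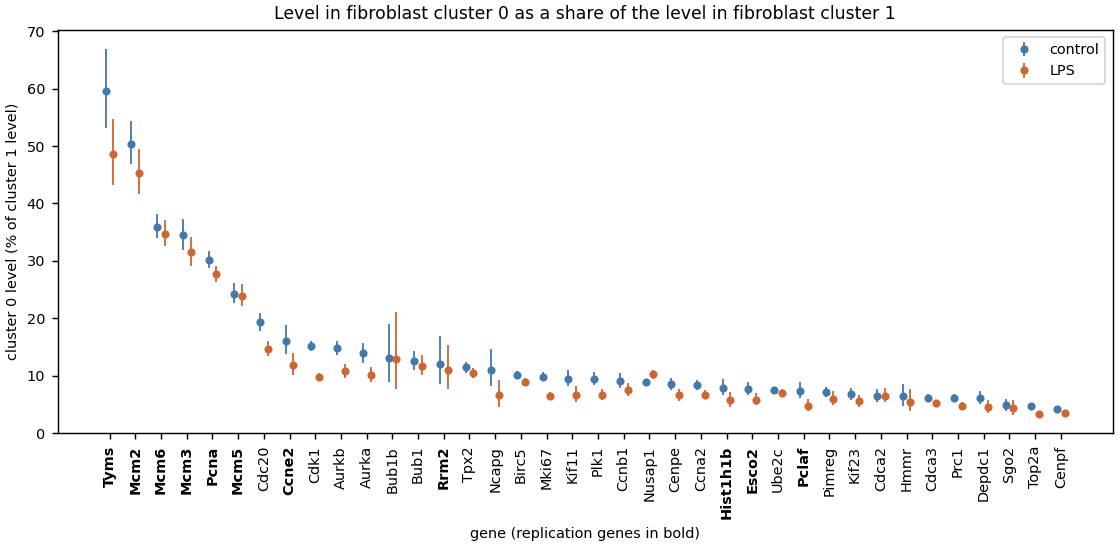
Level of each gene in cluster 0 as a percentage of its level in cluster 1 (y axis), genes in falling order (x axis, replication genes in bold), with 95% intervals for the control library (blue) and the LPS library (orange). The 6 points at the left are all replication genes, from *Tyms* at 59.6% to *Mcm5*, while *Esco2*, *Pclaf* and *Hist1h1b* lie among the mitosis genes.

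The ratio of replication to mitosis UMIs gives the same difference in 1 number. It was 0.273 in control and 0.296 in LPS cells of cluster 1, and 0.871 and 1.04 in cluster 0. Cluster 2 (0.499 and 0.475), cluster 4 (0.488 and 0.549) and cluster 8 (0.432 and 0.392) lay between. Fibroblast cluster 7 stood at 0.555 in control and at 1.05 (0.874 to 1.27) in LPS cells, the latter from 236 and 224 UMIs. No cluster can be taken to lack the cell cycle genes, so no background share from such a class is given, and the part of free RNA in these values was not tested.

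Cells were then counted 1 by 1. A cell was scored by whether it held 3 or more UMIs of the 38 genes, and because depth differed between libraries 3000 UMIs were first drawn from each cell. Only 75 LPS cells, and no control cell, were too shallow for this draw. Before thinning, 59.2% of control and 36.5% of LPS cells of cluster 0 reached 3 UMIs, at median depths of 12968 and 9821.5 UMIs. After thinning the shares were 6.68% (6.09 to 7.31) and 6.35% (5.79 to 6.95). The mean over all possible draws was 7.42% and 6.47%, so the single draw was low in control cells.

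In cluster 1 the thinned shares were 92.7% (91.2 to 94.1) in control and 91.1% (89.6 to 92.6) in LPS cells. The mean over all possible draws was 91.6% and 91.9%, so the order of the 2 libraries depended on the draw. The median cell of this cluster held 37 and 28 UMIs of the 38 genes before thinning, against 3 and 2 in cluster 0. Between clusters 0 and 1 came cluster 8, with 28.6% and 40.7% (20 of 70 and 33 of 81 cells, mean over all draws 29.5% and 35.8%). Cluster 9 also lay between, with 18.2% and 18.5% (mean over all draws 20.6% and 18.2%). Fibroblast cluster 7 had 16.3% in control and 6.94% in LPS cells (17 of 104 and 10 of 144 cells). Endothelial cluster 4 had 12.7% and 9.17%. In clusters 2, 3, 5 and 6 the shares ran from 4.48% to 8.26%, close to those of cluster 0.

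For the mitosis genes alone, 77.1% and 76.1% of cells of cluster 1 reached 3 thinned UMIs, and 2.42% and 1.91% of cluster 0. For the replication genes it was 20.6% and 23.0% in cluster 1, and 1.70% and 2.38% in cluster 0. Their mean over all possible draws was 20.9% and 24.1% in cluster 1, and 1.96% and 2.18% in cluster 0. The order of the libraries was thus the same, but the single draw widened the gap in cluster 0 and narrowed it in cluster 1. Of all cells with 3 or more mitosis UMIs, 998 of 1324 control cells (75.4%) and 1092 of 1388 LPS cells (78.7%) were in cluster 1. Cluster 0 held 160 and 134 of them, cluster 4 held 46 and 37, and cluster 2 held 43 and 58.

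**Figure D3:**
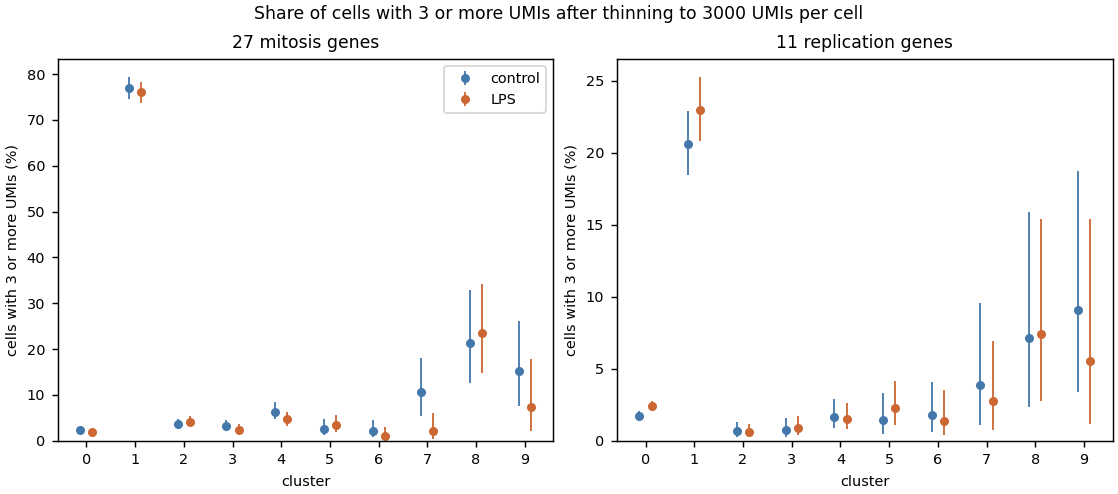
Share of cells of clusters 0 to 9 with 3 or more UMIs of the 27 mitosis genes (left) and the 11 replication genes (right) after thinning to 3000 UMIs per cell, with Clopper-Pearson intervals. Cluster 1 stands apart in both panels, at 77.1% and 76.1% on the left and 20.6% and 23.0% on the right, and the intervals of control (blue) and LPS (orange) overlap in each cluster on the left.

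The spread of mitosis UMIs over the cells of each cluster was also described. Shares of cells with none and shares held by the top cells follow in part from the number of UMIs per cell. That number differed, with 7017 thinned mitosis UMIs in 1295 control cells of cluster 1 and 3045 in 6600 of cluster 0. No expectation from counting alone was set beside the shares, so they do not show which cluster held its UMIs more evenly. In cluster 1 only 2.93% of control and 2.86% of LPS cells had no thinned mitosis UMI, and the 5% of cells with the most held 14.8% and 15.3% of the cluster's mitosis UMIs. In cluster 0, 65.9% and 71.5% of cells had none, and the top 5% held 30.6% and 35.1%. In cluster 2 the top 5% held 47.1% and 53.8%, and a single control cell had 32 of 3000 UMIs. The top 5% held 41.9% and 42.4% in cluster 4 and 42.7% and 43.9% in cluster 5. LPS cells of cluster 9, with 42 mitosis UMIs in all, were at 47.6%.

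Outside the fibroblasts, the cells with mitosis UMIs also differed in the markers of other types. In endothelial cluster 4, cells with 3 or more thinned mitosis UMIs had 1.70 times the fibroblast marker level of cells with 0 in the control library and 1.63 times in the LPS library, and 0.80 and 0.83 times the level of 6 endothelial markers. Their median depth was 21047.5 against 12071.5 UMIs in control cells and 12675 against 10169 UMIs in LPS cells. In cluster 3 (26 and 22 such cells) the fibroblast list was 1.85 and 2.21 times as high and the list of 7 cardiomyocyte markers 0.67 and 0.63 times. In macrophage cluster 6 there were 6 and 3 such cells, with 0.20 and 0.67 times the level of 9 macrophage markers. The part of cells captured together in these values was not tested.

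Cells of cluster 1 were sorted by which of the 2 sets reached 3 UMIs. The cut was the same for both, though the mitosis genes stood at 1806 and 1793 CPM there and the replication genes at 492 and 531 CPM. The split between the sets therefore depends on this cut. Only 24.5% of cells in each library had no thinned replication UMI, so cells under the cut do not all lack replication transcripts. After thinning, 186 control cells (14.4%) and 238 LPS cells (16.6%) held at least 3 UMIs of each set, 62.7% and 59.5% only of the mitosis set, 6.25% and 6.41% only of the replication set, and 16.7% and 17.5% of neither. Among cells with 3 or more mitosis UMIs, 18.6% and 21.8% reached 3 replication UMIs. Among the other cells of the cluster the share was 27.3% and 26.8%. In cluster 0 the order was the opposite, with 19.4% and 28.4% of mitosis-positive cells against 1.26% and 1.87% of the rest. The clusters were built from the expression of these same cells, and the part of that sorting in both orders was not tested.

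Pairs of genes in cluster 1 showed the same parting. For each ordered pair, the share of thinned cells with a UMI of the second gene was taken among cells with and without a UMI of the first. Not every gene served as the first, and most pairs within a set entered in both orders, so the pairs counted are not independent. Between 2 mitosis genes the median difference was 3.53 percentage points in control and 3.45 in LPS cells, and 544 and 537 of 624 pairs lay above 0. From a mitosis gene to a replication gene the median was -1.29 and -0.98 points, with 71 and 90 of 264 pairs above 0. Between 2 replication genes it was 0.64 and 1.23 points. Each pair shares its cells and their depth, and the cluster was built from expression. These numbers therefore describe the cluster and are no test.

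*Ccnb1*, the cyclin of mitotic entry, is described first. It was detected in 118 control and 136 LPS cells of cluster 1. *Cenpf* was found in 40.7% and 43.4% of these against 19.9% and 18.9% of the remaining cells. For *Ube2c* the shares were 49.2% and 51.5% against 30.3% and 31.9%, and for *Cdc20* 27.1% and 27.9% against 12.0% and 15.2%. *Pcna* went the other way, with 20.3% and 25.7% against 31.2% and 34.9%.

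*Ccne2*, a cyclin of S phase entry, gave the reverse picture. In the 74 control and 95 LPS cells with *Ccne2*, *Cenpf* was found in 2.70% and 7.37%, against 22.9% and 22.2% of the other cells of the cluster. *Pcna* was found in 33.8% and 46.3% of them against 30.0% and 33.1%. *Cdc20* stood at 4.05% and 10.5% against 13.9% and 16.8%. Several of these named pairs are extremes and not typical of the cluster. *Cenpf* by *Ccne2* in control cells matches the lowest of 270 differences from a replication to a mitosis gene, -20.2 points, where the median was -1.75. In LPS cells, *Cenpf* by *Ccnb1* and *Pcna* by *Ccne2* match the highest differences of their kinds of pair, 24.4 and 13.2 points.

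The 2 libraries were compared as the ratio of the LPS level to the control level. Over all cells the summed level of the 38 genes was 0.963 of control (0.954 to 0.972), and the median ratio of all 13228 genes with 50 or more UMIs was 0.913 (log2 -0.13), so relative to the typical gene the set was slightly higher. By cluster the ratio was 0.896 (0.880 to 0.913) in cluster 0 and 1.01 (0.999 to 1.02) in cluster 1, where the median genes stood at 0.914 and 0.955. It was 1.00 in cluster 2, 0.893 in cluster 3 and 1.09 in endothelial cluster 5. Cluster 8 stood at 1.10 (1.01 to 1.20). Lower ratios were found in endothelial cluster 4, 0.785 (0.753 to 0.819), cluster 9, 0.718 (0.591 to 0.869), macrophage cluster 6, 0.705 (0.638 to 0.777), and fibroblast cluster 7, 0.597 (0.530 to 0.672).

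In cluster 0 the 2 sets differed. The replication genes had 0.983 (0.958 to 1.01) of their control level and the mitosis genes 0.821 (0.800 to 0.842). Of the 38 genes, 31 had a ratio under 1, among them 25 of the 27 mitosis genes, where 63.3% of all genes had one, and 7 were lower by 1.5-fold or more, where 19.7% of all 12247 genes were. None was higher by that fold (6.92% of all genes). The count of 7 of 38 is close to that background share. Once each ratio was divided by the median ratio of all genes of the cluster, 2 of the 38 genes were past the fold. No share of all genes was taken for that setting.

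The lowest ratio in cluster 0 was that of *Pimreg*, a mitotic gene whose protein binds the CALM clathrin adaptor. It had 284 control UMIs (3.14 CPM) and 129 LPS UMIs (1.75 CPM), a ratio of 0.557 (0.449 to 0.689). *Mki67*, the proliferation marker Ki-67 that coats mitotic chromosomes, had 971 UMIs (10.7 CPM) and 473 UMIs (6.41 CPM), a ratio of 0.598 (0.534 to 0.668). *Hist1h1b* stood at 0.633 (0.490 to 0.814), *Top2a* at 0.643 (0.570 to 0.724), and *Kif11*, the motor that pushes spindle poles apart, at 0.648 (0.521 to 0.803). *Aurkb* (0.658) and *Sgo2* (0.659), the shugoshin that guards centromere cohesion, were also past the fold.

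At the other end of cluster 0 were *Rrm2*, a subunit of ribonucleotide reductase, at 1.16 (0.771 to 1.74) from 53 and 50 UMIs, and *Pcna*, at 1.08 (1.02 to 1.13) from 3401 and 2980 UMIs. *Mcm3* (1.05), *Ccne2* (1.04) and *Nusap1* (1.03) had intervals that took in 1.

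In cluster 1 the replication genes had 1.08 (1.05 to 1.11) and the mitosis genes 0.993 of their control level. Of the 38 genes 18 had a ratio under 1, against 57.8% of all genes, and only *Pimreg*, at 0.658 (0.594 to 0.729; 44.0 and 29.0 CPM), was lower by 1.5-fold, where 13.3% of 10312 genes were. None was higher by 1.5-fold, against 6.47% of all genes. *Bub1b* (0.727, 0.506 to 1.03), a spindle checkpoint kinase, *Sgo2* (0.734, 0.642 to 0.838), *Kif23* (0.858), a motor of the midzone, and *Hist1h1b* (0.877) were the next lowest.

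The highest ratio of cluster 1 was that of *Ccne2*, at 1.41 (1.24 to 1.61), from 17.6 CPM in control to 24.8 CPM in LPS cells. *Aurka*, a centrosome kinase, followed at 1.34 (1.21 to 1.48; 30.9 and 41.4 CPM), then *Rrm2* at 1.27 (0.982 to 1.66), *Plk1*, the polo kinase of mitotic entry, at 1.26 (1.15 to 1.37; 43.3 and 54.5 CPM) and *Pclaf* at 1.24 (1.11 to 1.39). Of the 11 replication genes 7 had a ratio over 1 and 4 under 1, and of the 27 mitosis genes 13 and 14. *Cdk1* lay on opposite sides of 1 in the 2 fibroblast clusters, at 0.687 in cluster 0 and 1.06 in cluster 1, and the difference between the clusters has no replicates to test it.

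**Figure D4:**
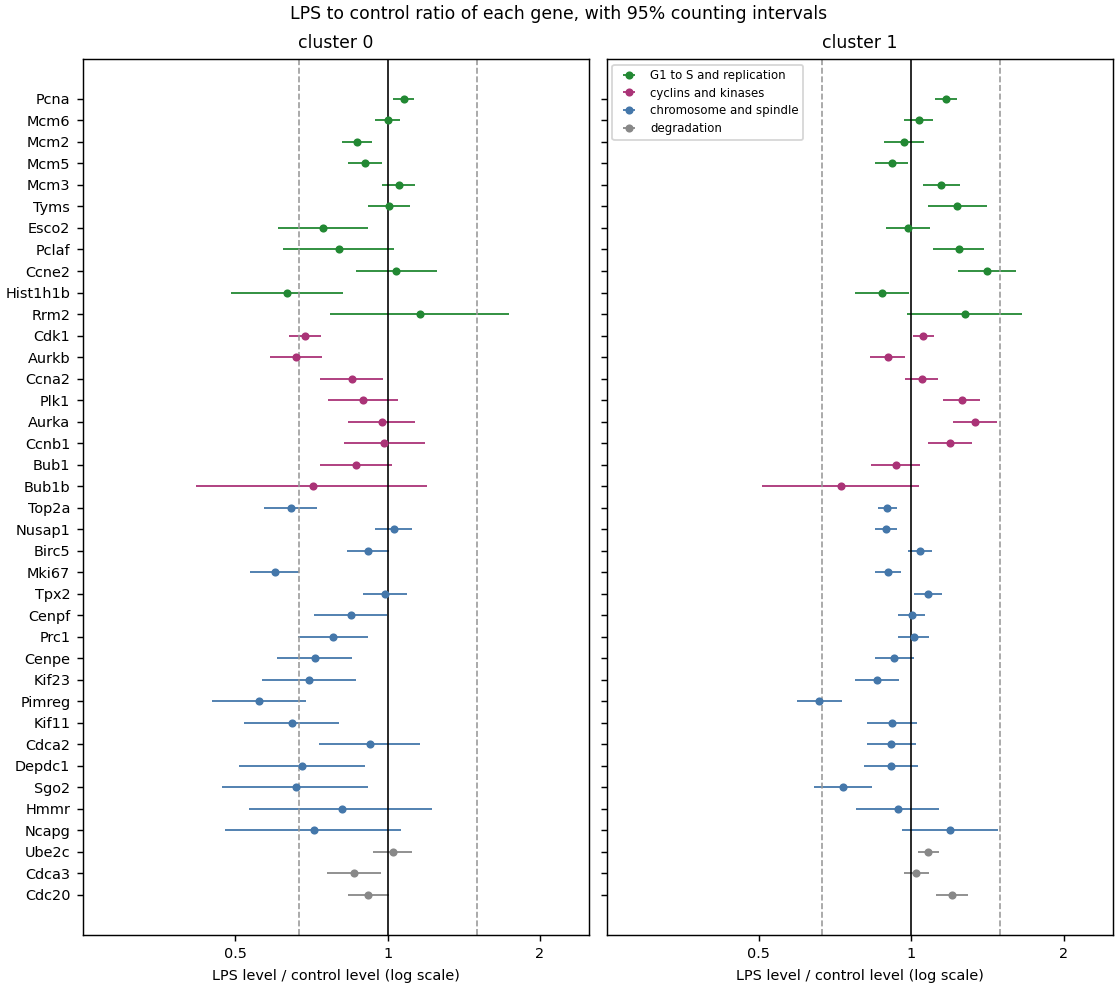
Ratio of the LPS level to the control level (x axis, log scale) of each of the 38 genes in cluster 0 (left) and cluster 1 (right), with 95% counting intervals and colours for the roles. Dashed lines mark 1.5-fold either way. In cluster 0, 31 points lie left of 1 and 7 lie at or past the left line, while in cluster 1 the points lie on both sides of 1 and *Pimreg* alone is past a line.

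Over all cells 2 of the 38 genes were lower by 1.5-fold or more (18.5% of all genes) and none was higher (6.57% of all). The 2 were *Pimreg* at 0.649 and *Bub1b* at 0.658, and the next lowest were *Sgo2* (0.708), *Aurkb* (0.794) and *Hist1h1b* (0.825). The highest were *Ccne2* at 1.26 (1.14 to 1.39), *Rrm2* at 1.21 (0.989 to 1.48), *Aurka* at 1.18 (1.09 to 1.27), *Pclaf* at 1.15 (1.05 to 1.27) and *Ccnb1* at 1.13 (1.04 to 1.22). In endothelial cluster 4, 31 of the genes had 50 or more UMIs, and 8 of these were lower by that fold and none higher, against 13.2% and 5.64% of 9492 genes. These were *Pimreg*, *Top2a*, *Kif11*, *Aurkb*, *Cdk1*, *Bub1*, *Esco2* and *Mcm5*. *Top2a* went from 22.1 CPM (246 UMIs) in control to 11.3 CPM (110 UMIs) in LPS cells, a ratio of 0.511 (0.404 to 0.642), and *Cdk1* from 37.5 to 23.1 CPM, a ratio of 0.617 (0.522 to 0.727). Without the 8% of cells with the most UMIs the summed ratio of cluster 4 was 0.894 in place of 0.785. Of the 24 genes that then had enough UMIs 4 were lower and 1 higher by the fold, with no share of all genes taken for these cells. The fibroblast marker list, whose level was raised in the mitosis-positive cells of this cluster, went from 3079 CPM in control to 2178 CPM in LPS cells of cluster 4, and the endothelial list from 1805 to 1691 CPM. The fibroblast list was lower in LPS cells of every other cluster as well. In endothelial cluster 5, where the summed ratio of the 38 genes was 1.09, it went from 2862 to 2022 CPM. The part of these marker lists in the result was not tested.

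In macrophage cluster 6, 13 of the genes had enough UMIs, and 7 were lower by 1.5-fold and 1 higher, beside 30.8% and 8.80% of 6385 genes. There the median ratio of all genes was itself 0.808 (log2 -0.31). *Mki67* had 44 control and 14 LPS UMIs (0.399, 0.202 to 0.741), and *Top2a* had 65 and 23 (0.443, 0.263 to 0.723). In fibroblast cluster 7, with 104 and 144 cells, 8 of the genes could be compared, of which 5 were lower and 1 higher, beside 11.7% and 10.5% of 4806 genes. *Ube2c* had 43 and 15 UMIs there (0.335, 0.173 to 0.615). Thinned cells of cluster 7 with 3 or more mitosis UMIs numbered 11 of 104 in control and 3 of 144 in LPS cells.

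Other features of the fibroblasts were compared by the mitosis UMIs of a cell, a split that the cell cycle genes made and the other genes did not. In clusters 0 and 1 together, 1158 control and 1226 LPS cells had 3 or more thinned mitosis UMIs and 4385 and 5062 had none. The former were deeper, with medians of 17587.5 against 12843 UMIs in control and 13279.5 against 9741.5 in LPS cells. As most of them lay in cluster 1, the same values were taken within cluster 0 as well. Markers of red cells moved with the split in the control library, where the 160 mitosis-positive cells of cluster 0 held 758 UMIs of 2 such genes and the cells with no mitosis UMI held 272, while the LPS counts were 4 and 124. Their part in the result was not tested.

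Fibroblast matrix genes differed in level between these cells. *Dcn*, the proteoglycan decorin, had 0.63 times the level of cells with no mitosis UMI in control (1767 against 2807 CPM) and 0.68 times in LPS cells, and *Lum*, lumican, 0.71 and 0.77 times. *Col1a1*, the chain of type I collagen, was at 1.04 and 1.01 times. Within cluster 0 *Dcn* stood at 0.74 and 0.85 times and *Lum* at 0.83 and 1.05 times, so the lower *Lum* did not hold there in LPS cells.

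The response to LPS was read in both kinds of cell. A list of 12 such genes, taken from earlier results of these data, summed to 17479 CPM in LPS cells with 3 or more mitosis UMIs and to 18844 CPM in those with none, a ratio of 0.93. From control to LPS its sum was 6.14 times as high (6.08 to 6.19) in the former and 5.92 times (5.89 to 5.94) in the latter. Within cluster 0 it was 5.79 times (5.65 to 5.94) and 5.91 times (5.88 to 5.94), the opposite order with overlapping intervals. *Nfkbia*, the inhibitor of NF-kB, had 1.06 times the level in mitosis-positive LPS cells, the chemokine *Ccl2* 0.99 times and *Cxcl1* 0.99 times.

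Some response genes were lower in the mitosis-positive cells. *Tnfaip6*, which encodes a hyaluronan-binding protein of inflamed tissue, stood at 213 CPM against 357 CPM in the LPS library (0.60 times), and *Il6* at 4.49 against 9.36 CPM (0.48 times, 77 and 492 UMIs). *Cxcl3* and *Cxcl6* stood at 0.78 times each. Within cluster 0 *Tnfaip6* stood at 0.82 times and *Cxcl3* at 0.84 times, nearer to 1. *Il6* was further from 1 there, at 3.10 against 9.38 CPM, from only 5 and 488 UMIs. The ratio of LPS to control for *Cxcl1* was 19.8 in mitosis-positive and 13.6 in mitosis-negative cells, since its control level was lower in the former (112 against 165 CPM). For *Tnfaip6* the ratio was 9.40 (8.55 to 10.4) in mitosis-positive and 14.1 (13.4 to 14.9) in mitosis-negative cells. Within cluster 0 the order was the opposite, at 20.1 (14.3 to 28.9) and 14.1 (13.4 to 14.9), with overlapping intervals. The control levels of *Tnfaip6* there were 14.7 and 25.4 CPM.

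**Figure D5:**
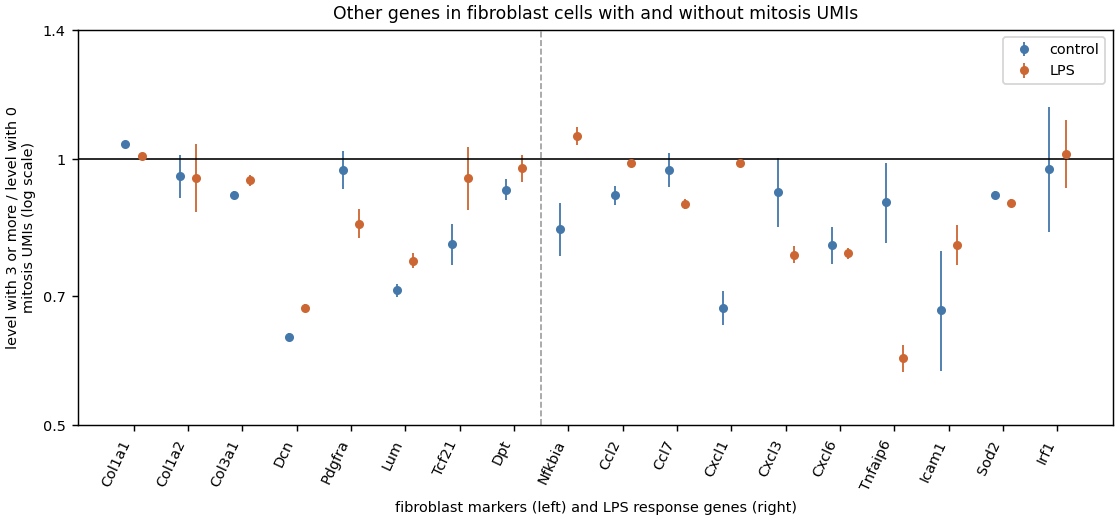
Level in fibroblast cells (clusters 0 and 1) with 3 or more mitosis UMIs divided by the level in cells with none (y axis, log scale), for 8 fibroblast markers and 10 of the LPS response genes (x axis), with 95% counting intervals. *Dcn* and *Lum* lie under 1 in both libraries, *Ccl2* and *Cxcl1* lie near 1 in the LPS library, and *Tnfaip6* lies at 0.60 there.

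Cell cycle genes beyond the 38 were read from 4 further lists. Of 34 further S phase genes, none was past 1.5-fold over all cells and the median ratio was 0.970. In cluster 0, 1 of 34 was lower and 1 higher (*Cdca7*, 1.55), beside 19.7% and 6.92% of all genes. In cluster 1, 1 of 33 was higher (*Hells*, a chromatin remodeller, at 1.59), beside 6.47% of all genes. Of 31 further genes of G2 and mitosis, 3 were lower and 2 higher over all cells, with a median of 0.95, where 18.5% and 6.57% of all genes were. *Cdc25b*, the phosphatase that activates Cdk1, was lowest at 0.35 over all cells, 0.30 in cluster 0 and 0.43 in cluster 1. *Cks2*, a small subunit of Cdk complexes, was highest at 1.97, 2.54 and 1.54, followed by the tubulin *Tubb4b* at 1.54, 1.66 and 1.53.

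The genes of G1 and the brakes of the cycle included larger ratios than the 38 genes. Of 11 G1 genes, 1 was lower by 1.5-fold and 2 were higher over all cells, beside 18.5% and 6.57% of all genes. In cluster 0, 1 was lower and 4 were higher, beside 19.7% and 6.92% of all genes. The lower gene was *E2f2*, at 0.65 over all cells and 0.58 in cluster 0. *Cdk6* stood at 1.55 and 1.89. *Myc*, the growth factor-responsive transcription factor, stood at 22.2 CPM in control and 50.5 CPM in LPS cells, a ratio of 2.27, with 2.33 in cluster 0 and 2.37 in cluster 1. *Ccnd1*, cyclin D1, had ratios of 1.54 and 1.53 in those clusters and of 1.33, within the fold, over all cells. The median ratio of the 11 genes was 1.38 in cluster 0, where 8 had a ratio over 1 and 3 under 1.

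Of 16 inhibitors and brakes of the cycle, 6 were lower by 1.5-fold and 3 higher over all cells, beside 18.5% and 6.57% of all genes. *Cdkn1c*, the Cdk inhibitor p57, stood at 114 CPM in control and 39.2 CPM in LPS cells, a ratio of 0.34, with 0.31 in cluster 0 and 0.29 in cluster 1. *Cdkn2c*, the inhibitor p18, was at 0.50, and *Rb1*, the retinoblastoma protein, at 0.45 from 132 and 50 UMIs. On the other side were *Cdkn2b*, the inhibitor p15, at 2.00, and the antiproliferative genes *Btg1* at 1.87 and *Btg2* at 1.71. In both fibroblast clusters these 3 genes were also higher, between 1.89 and 2.28.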

How the data were processed

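Cells of 2 libraries, 1 of each condition, were measured on the 10x Genomics platform. The authors deposited raw counts of UMIs for each gene in each barcode, not normalized, and a table of clusters. The submitters' processing notes name Cell Ranger 2.2.0 and Seurat 2.3.4, and the paper's methods give Seurat's RunCCA and FindClusters. The genome build and annotation of the counts are not given in the sources used here. Genes were matched by symbol. Counts were summed per cluster and library with pandas 2.3.3, scipy 1.17.1, numpy 2.4.6 and matplotlib 3.10.9 under Python 3.11.15. Intervals are exact Poisson (levels), exact conditional (ratios) and Clopper-Pearson (shares). Totals per library were 152624585 and 127580475 UMIs, of which 152616191 and 127556160 lay in cells with a cluster. For thinning, 3000 UMIs of a cell were drawn at random, none more than once (seed 1). The 2 control and 8 LPS cells without a cluster were left out of every class and of the sums over all cells. The 75 shallow LPS cells were left out of thinned values only. No other cell was removed for the main values, and no doublet caller was run. Genes with 50 or more UMIs in a class over both libraries were compared, with 1.5-fold as the call. Named genes were the 3 with the most UMIs in each role, the 5 highest and 5 lowest ratios in all cells, cluster 0 and cluster 1, and up to 5 per further list. Other genes were named after their values were seen. The genes and lists were chosen with earlier results of these data known. The ratios, calls and thinning were tried on simulated counts without clumping of transcripts in a subset of cells. That trial therefore does not show how the intervals hold on these data. Alternatives were other scalings, cell sets, gene sets, thinning depths, minimums and folds.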

Additional observations from a re-analysis of the deposited data

How the results depend on the processing

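No paired analysis was possible because only 1 library of each condition exists here. Under 7 alternatives the ratio of LPS to control of the summed level kept its side of 1 in clusters 0, 4, 6 and 7. It ran from 0.871 to 0.981 in cluster 0 and from 0.758 to 0.894 in cluster 4. In clusters 6 and 7 it ran from 0.630 to 0.872 and from 0.561 to 0.614. In cluster 1 it ran from 1.00 to 1.06, but the interval of the ratio itself took in 1. The alternatives of cluster 2 (0.884 to 1.09) and cluster 10 (0.731 to 1.14) fell on both sides of 1. Over all cells the ratio of 0.963 went to 1.05, the other side of 1, when divided by the median ratio of all genes, as that median is under 1. It was 0.945 as the mean of the cells' own values, 0.973 without the 8% of cells with the most UMIs, 0.95 without *Pcna*, 0.953 without the 5 genes with the most UMIs and 0.978 with totals that leave out the LPS response list. Without *Pcna* and without the 5 genes the ratio of cluster 0 was 0.871 and 0.875, and divided by the median 0.981. For cluster 1 it was 1.06 divided by the median and 1.03 without the LPS list. For cluster 4 it was 0.839 as the cells' own mean, 0.894 without the 8% and 0.834 divided by the median, and for cluster 6 0.630 and 0.872 by the last 2. Levels of cluster 0 were 291, 295, 269 and 197 CPM in control and 258, 265, 234 and 172 CPM in LPS cells as the own mean, without the 8%, without *Pcna* and without the 5 genes. Those of cluster 1 were 2276, 2174 and 1603 CPM in control by the last 3, and 2299, 2296, 2178 and 1603 CPM in LPS cells by all 4.

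Shares of cells depend on the count asked for and on depth. With 1, 5 and 10 or more UMIs, cluster 0 had 52.5%, 1.64% and 0.0758% of control and 47.7%, 1.79% and 0.0569% of LPS cells, and cluster 1 had 99.5%, 71.7% and 19.8% and 99.7%, 70.5% and 20.1%. With no thinning and at 1500 and 5000 UMIs, cluster 0 had 59.2%, 1.94% and 16.1% of control (7.42% over all draws of 3000) and 36.5%, 1.83% and 14.0% of LPS cells, and cluster 1 had 100%, 59.1% and 98.8% and 99.9%, 60.4% and 98.9%. Cells of cluster 1 with both sets made up 36.0% and 38.5% at 2 or more UMIs each and 1.39% and 1.11% at 5. The ratio of replication to mitosis UMIs without *Pcna* and *Cdk1* was 0.743 and 0.839 in cluster 0, and 0.222 and 0.236 in cluster 1.

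Of the 38 genes (31 in cluster 4), those lower by 2-fold numbered 0 over all cells, 0 in cluster 0, 0 in cluster 1 and 2 in cluster 4. Those with a ratio of 0.8 or less numbered 4, 15, 3 and 18. Genes as far above 1 on the log scale numbered 1 over all cells, 4 in cluster 1 and 1 in cluster 4. Divided by the median, 0 genes were lower by 1.5-fold over all cells, 2 in cluster 0 and 0 in cluster 1. Without the 8% of cells 1 was lower over all cells, and in cluster 4 4 were lower and 1 higher. With a minimum of 100 UMIs 5 of 25 were lower in cluster 4. No share of all genes was taken for these other settings, so their counts cannot be read as a result about the 38 genes. The median ratio of all genes was itself 0.914 in cluster 0 and 0.941 in cluster 4. The mean over all draws, and the leaving out of the 8% for shares of cells, were added after seeing the data. With 1 library per condition the spread between cultures is not known, and the lower depth of LPS cells limits their scarcer genes, such as *Bub1b*, most.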
